A study of Homo sapiens with 28 samples.

Results

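LNCaP cells, an androgen-responsive line derived from a prostate cancer metastasis, were profiled by RNA sequencing after treatment with the synthetic androgen R1881, an inhibitor of the Mediator kinases CDK8 and CDK19, or both, and the 10 genes described here are 5 subunits of the transcription factor NF-kB and 5 of its inhibitors and feedback regulators. Members were chosen by symbol (NFKB1, NFKB2, REL, RELA, RELB, NFKBIA, NFKBIB, NFKBIE, TNFAIP3 and BIRC3), and each matched 1 row among the 61815 human genes of the counts table. In the first experiment, cells received 0.1% DMSO (vehicle), 1 µM Senexin B, 0.1 nM R1881, or Senexin B and R1881 together for 24 h, with 3 libraries per group. The Senexin B dose is that of the sample labels, and the study's own text names a higher one. In the second, they received 0.1% DMSO, 500 nM SNX631, 1 nM R1881, or SNX631 and R1881 together for 72 h, with 4 libraries per group. All cells had first been kept for 72 h in charcoal-stripped serum, from which steroids have been removed, so every vehicle library is from androgen-deprived cells. Senexin B and SNX631 are chemically unrelated inhibitors of the same kinases. Because the inhibitor, the R1881 dose and the time all differ between the experiments, values from the 2 are set side by side without a test, and their separate parts cannot be told apart. The study's methods call the libraries of a group biological replicates, but the labels do not say which culture each came from.

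NF-kB is a dimer of subunits that share a Rel homology domain. RELA, REL and RELB carry transactivation domains, whereas NFKB1 and NFKB2 code for long precursors that are processed to the DNA-binding subunits p50 and p52. In resting cells, the inhibitors encoded by NFKBIA, NFKBIB and NFKBIE hold dimers in the cytoplasm until the IkB kinase complex marks the inhibitors for degradation. NFKBIA, TNFAIP3 and BIRC3 are textbook targets of NF-kB itself: NFKBIA resupplies the inhibitor, TNFAIP3 (A20) edits ubiquitin chains upstream of the kinase, and BIRC3 (cIAP2) is a ubiquitin ligase of the TNF receptor complex.

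The libraries held 9847867 to 33811127 counts. The deepest was vehicle replicate 3 at 24 h and the next held 15249891. KLK3, the androgen-induced gene for prostate-specific antigen, lay between 0.716 and 1.84 CPM (counts scaled to library size) in the libraries without R1881 and between 27.4 and 144 CPM in those with it. The luminal markers FOLH1, KRT8, KRT18, HOXB13 and STEAP2 were each at 283 CPM or more in every library, with TMPRSS2 at 14.8 CPM or more. All 6 leukocyte markers had medians under 1 CPM, and CD3E was at 0 in all libraries. The 4 basal markers summed to at most 0.684 CPM and the 4 endothelial ones, mostly VWF, to 1.02 to 1.36 CPM with vehicle and 2.44 to 3.08 CPM with R1881 at 24 h, and to 0.716 to 1.46 and 3.21 to 4.45 CPM at 72 h. The 6 fibroblast markers summed to 28.9 to 32.3 CPM with vehicle and 16.0 to 17.9 CPM with R1881 at 24 h, and to 36.2 to 40.4 and 18.5 to 25.8 CPM at 72 h. With Senexin B alone they summed to 22.8 to 23.8 CPM and with SNX631 alone to 32.6 to 35.5 CPM, almost all from COL1A1 and COL3A1, while DCN and COL1A2 did not exceed 0.182 CPM. The part of these fibroblast and endothelial marker counts in the results was not tested. In bulk RNA, fewer cells expressing a gene and less RNA per cell cannot be told apart.

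The sequence before an annotated start site of most of these genes that could be searched holds a match to the motif that NF-kB itself binds. RefSeq promoter windows (GRCh38.p14) were at hand for 8 of the 10 genes, 13 windows in all, and the 250 bases before each start site were searched on both strands for the kB consensus and for the androgen response element half-site AGAACA. The kB consensus occurred in 8 of the 13 windows and in 7 of the 8 genes, compared with 5.21% of all 35116 windows and 6.28% of all 27305 genes with a window. RELA was the gene with no match. The members were chosen as NF-kB subunits and feedback genes, some of them known targets, so the higher share is not an independent result. The half-site occurred in 0 of the 13 windows and in 12.4% of all windows. At that share, 13 windows, some of the same gene, are too few to read this 0 as an absence. Sequence beyond the 250 bases was not searched, and direct androgen control was not tested. A match is a run of letters and not evidence that a factor binds there. RELB and NFKBIE had no window. The 250 bases before the start site are shown for the 4 genes whose RNA responded to R1881 in both experiments, 5′ to 3′ on the strand of the gene, with kB matches in capitals. They lie at chr4:102501109-102501358 on the plus strand for NFKB1, chr14:35404750-35404999 on the minus strand for NFKBIA, chr6:137867009-137867258 on the plus strand for TNFAIP3 and chr11:102317234-102317483 on the plus strand for BIRC3.
NFKB1: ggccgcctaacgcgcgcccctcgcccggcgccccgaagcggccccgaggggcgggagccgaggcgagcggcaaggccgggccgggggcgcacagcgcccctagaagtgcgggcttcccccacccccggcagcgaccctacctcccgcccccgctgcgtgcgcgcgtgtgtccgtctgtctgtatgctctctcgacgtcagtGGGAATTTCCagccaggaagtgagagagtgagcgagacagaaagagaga
NFKBIA: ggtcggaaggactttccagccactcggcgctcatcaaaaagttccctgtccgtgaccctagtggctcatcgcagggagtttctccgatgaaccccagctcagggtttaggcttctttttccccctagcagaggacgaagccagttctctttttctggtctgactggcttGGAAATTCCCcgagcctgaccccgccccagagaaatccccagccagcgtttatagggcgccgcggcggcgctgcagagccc
TNFAIP3: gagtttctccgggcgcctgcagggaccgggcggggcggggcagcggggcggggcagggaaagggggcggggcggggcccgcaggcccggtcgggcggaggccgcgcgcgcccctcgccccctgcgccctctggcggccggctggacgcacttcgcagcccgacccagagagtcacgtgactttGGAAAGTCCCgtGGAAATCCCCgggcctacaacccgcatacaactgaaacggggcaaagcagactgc
BIRC3: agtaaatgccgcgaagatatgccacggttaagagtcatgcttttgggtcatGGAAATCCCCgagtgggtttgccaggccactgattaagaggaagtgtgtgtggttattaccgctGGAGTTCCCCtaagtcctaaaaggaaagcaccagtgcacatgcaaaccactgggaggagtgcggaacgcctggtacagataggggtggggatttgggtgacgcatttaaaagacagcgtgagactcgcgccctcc

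The NFKB1 match began 49 bases before the start site and reads in the sense direction, and it is in the first of the 2 windows of that gene. In NFKBIA the consensus reads on the opposite strand and begins 81 bases before the start site. TNFAIP3 held a pair of matches 67 and 55 bases before the start, both on the opposite strand and 2 bases apart. BIRC3 held matches at 199 and 135 bases before the start, again on the opposite strand. The same motif stood before a start site of 2 genes whose RNA was higher with R1881 and of 2 whose RNA was lower. It was also found for REL, NFKB2 and NFKBIB, which were not called with R1881. Any part of the motif in the response was not tested.

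Compared per kilobase of exon, NFKBIA, RELA and NFKB1 were the most abundant of the 10 transcripts. Medians over the 28 libraries were 33.9 CPM per kilobase for NFKBIA, 13.9 for RELA, 12.4 for NFKB1, 7.06 for NFKB2, 3.56 for NFKBIB, 1.61 for NFKBIE, 1.05 for TNFAIP3, 1.02 for REL, 0.447 for RELB and 0.181 for BIRC3. Lengths are unions of GENCODE 29 exons. This order changed with treatment. NFKBIA stood first in 6 of the 8 groups and NFKB1 in the other 2, those with Senexin B or SNX631 alone, although at 24 h the means of NFKB1 (19.1 CPM per kilobase) and NFKBIA (18.9) were within their SD of each other. TNFAIP3 was among the lowest 3 in every group without R1881 and passed REL in every group with it. BIRC3 had the lowest mean in all groups except vehicle at 24 h. In both vehicle groups and with Senexin B alone, BIRC3 and TNFAIP3 did not differ beyond their SD.

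**Figure D1:**
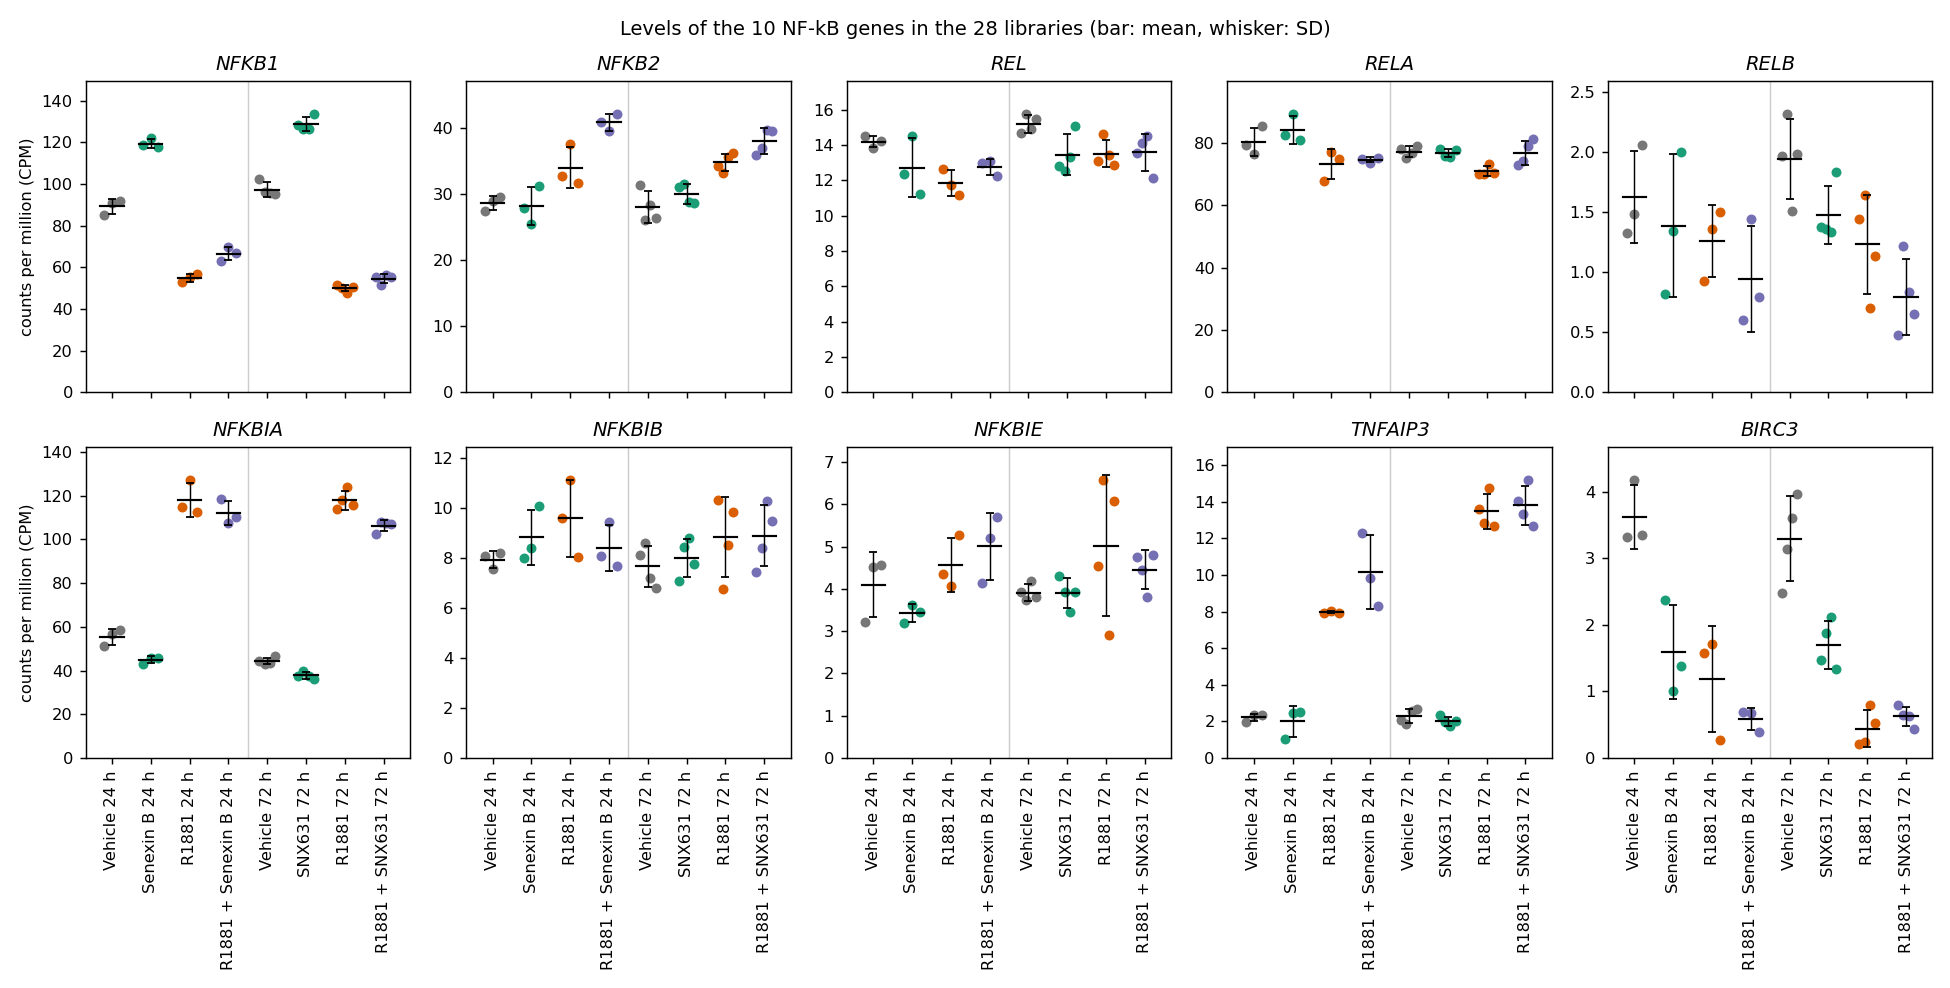
Level of each gene in CPM (y axis, linear from 0) in the 28 libraries, by the 8 groups (x axis), with 1 point per library, a bar at the mean and a whisker of 1 SD. NFKB1 was lower and NFKBIA and TNFAIP3 higher in every R1881 group than in every group without R1881, while RELA stayed between 67.9 and 89.2 CPM.

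R1881 changed 4 of the 10 genes in each experiment, 2 upwards (NFKBIA and TNFAIP3) and 2 downwards (NFKB1 and BIRC3). A gene was called where edgeR's quasi-likelihood test gave a Benjamini-Hochberg FDR under 0.01 over all genes tested and a fold change over 1.5. All 10 members passed the filter on low counts. Without inhibitor the 4 calls at 24 h stand beside 19.0% of the 15963 genes tested, and the 4 at 72 h beside 19.8% of 16084. With Senexin B the same 4 genes were called, beside 18.9% of all genes, and with SNX631 those 4 and RELB, beside 22.0%. With no fold limit, 6 members passed the FDR for R1881 alone at 24 h (48.3% of all genes), 7 with Senexin B (47.5%), 6 for R1881 alone at 72 h (52.2%) and 6 with SNX631 (57.2%), so passing the FDR alone was common in these data. The median log2 fold change of the 10 members with R1881 alone was -0.02 at 24 h and 0.02 at 72 h, beside -0.02 and -0.01 over all genes.

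The kinase inhibitors alone changed BIRC3, which was lower with either compound. That is 1 of 10 members, beside 3.76% of all genes for Senexin B and 4.76% for SNX631. NFKB1 and NFKBIA passed the FDR with smaller shifts that ran against those of R1881, so 3 members passed the FDR with any fold for each compound, beside 25.1% and 26.9% of all genes. Added on top of R1881, neither inhibitor gave a call by edgeR or DESeq2. Of all genes, 3.12% and 4.11% were called there. At an unadjusted p under 0.05 there were 4 members for Senexin B and 5 for SNX631, beside 42.0% and 49.0% of all genes. With any fold, NFKB1 and NFKB2 passed the FDR for Senexin B and NFKBIA for SNX631, beside 22.6% and 33.2% of all genes.

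**Figure D2:**
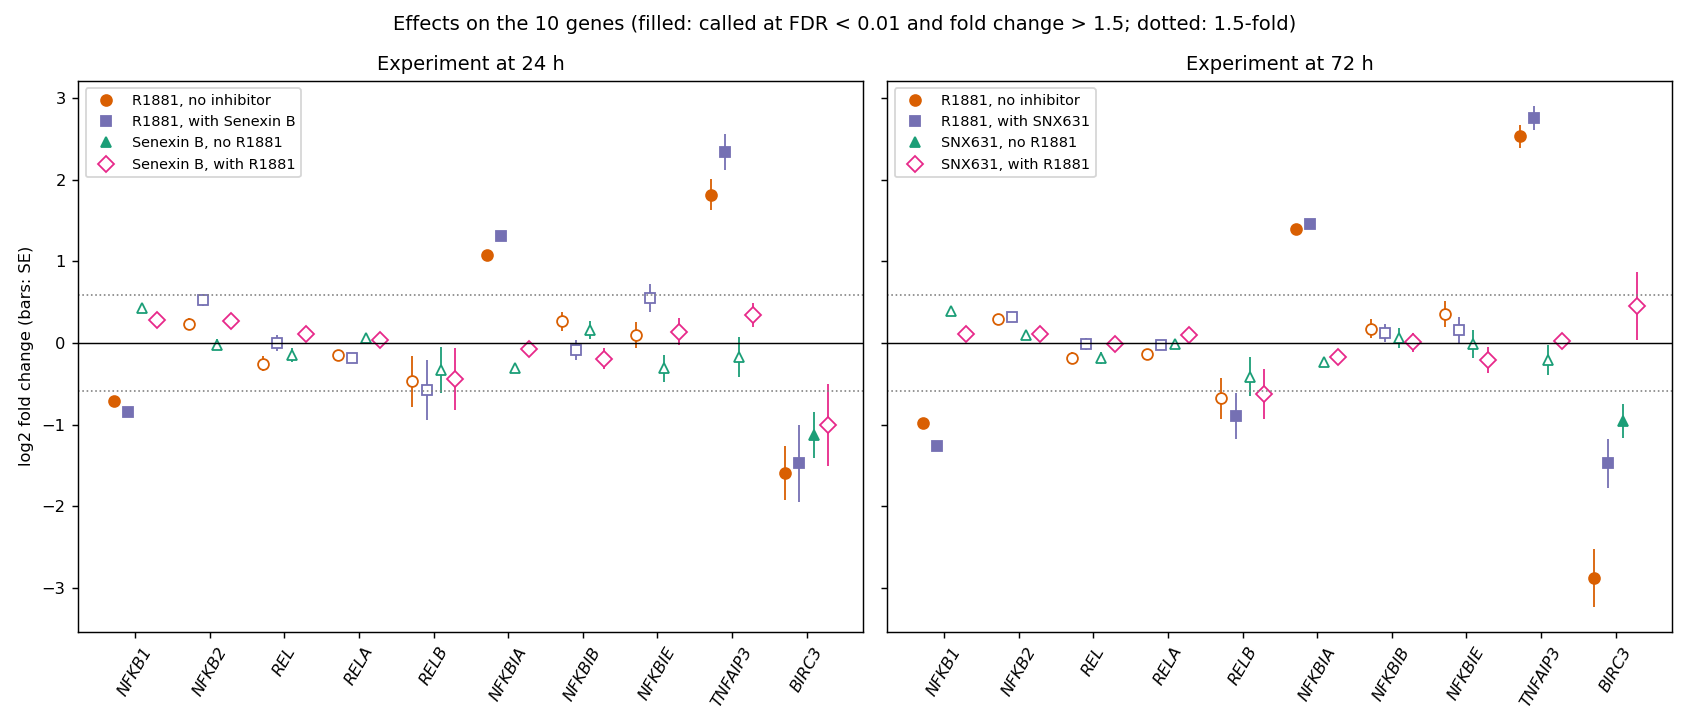
Log2 fold change (y axis, bars of 1 SE) of each gene (x axis) in the 4 comparisons of the 24 h experiment (left) and the 72 h experiment (right), filled where called and open where not. Filled points for R1881 sit on NFKB1, NFKBIA, TNFAIP3 and BIRC3 in both panels and on RELB for R1881 with SNX631, and the filled point for an inhibitor is on BIRC3 alone.

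NFKB1, the gene for the p105 precursor of p50, was lower with R1881 and higher with either inhibitor. At 24 h its 3 libraries read 85.0, 91.1 and 91.7 CPM with vehicle, 52.9, 55.3 and 56.7 with R1881, 119, 122 and 118 with Senexin B, and 63.3, 69.7 and 66.8 with both. At 72 h the 4 libraries read 102, 96.2, 95.5 and 95.3 CPM with vehicle, 51.3, 50.2, 47.8 and 50.5 with R1881, 128, 126, 126 and 133 with SNX631, and 55.2, 51.6, 56.3 and 55.3 with both. No group overlapped another within an experiment. Over all 8 groups, the only neighbours in the order of means whose libraries overlapped were R1881 at 24 h and R1881 with SNX631 at 72 h. R1881 alone lowered NFKB1 by a log2 fold change of -0.71 ± 0.05 (SE) at 24 h (FDR 1.02e-14) and -0.98 ± 0.04 at 72 h (FDR 6.45e-23). In the presence of an inhibitor the fall was -0.85 ± 0.04 with Senexin B (FDR 2.69e-17) and -1.26 ± 0.04 with SNX631 (FDR 6.23e-28).

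Senexin B alone gave NFKB1 a log2 fold change of 0.42 ± 0.04 (FDR 5.17e-10) and SNX631 alone 0.40 ± 0.03 (FDR 1.74e-12), both under the fold limit. On top of R1881 the shift was 0.28 ± 0.05 for Senexin B (FDR 5.67e-05) and 0.11 ± 0.04 for SNX631 (FDR 0.0292). The interaction, which asks whether the R1881 effect differs with and without the inhibitor, was -0.28 ± 0.05 at 72 h (FDR 2.51e-04), under the fold limit, and -0.14 ± 0.06 at 24 h (FDR 0.239). No member was called for an interaction by edgeR or DESeq2, beside 0.583% of all genes at 24 h and 1.19% at 72 h, and 4 and 3 members had an unadjusted p under 0.05, as did 16.7% and 25.1% of all genes. With any fold, NFKB1 at 72 h was the 1 member that passed the FDR, beside 7.09% of all genes, while 2.09% of genes did so at 24 h.

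NFKB2, the gene for the p100 precursor of p52 in the non-canonical pathway, was somewhat higher with R1881. Its libraries at 24 h read 27.5, 29.01 and 29.6 CPM with vehicle, 32.8, 37.6 and 31.7 with R1881, and 41.0, 39.5 and 42.1 with R1881 and Senexin B. At 72 h they read 31.4, 26.0, 28.4 and 26.5 CPM with vehicle and 34.3, 33.2, 35.6 and 36.2 with R1881. The R1881 and vehicle libraries did not overlap in either experiment. The log2 fold change with R1881 alone was 0.24 ± 0.07 at 24 h (FDR 0.00324) and 0.30 ± 0.06 at 72 h (FDR 3.23e-05), and with Senexin B present it was 0.53 ± 0.07 (FDR 6.73e-08), all under the fold limit. Leaving out Senexin B replicate 3 took the last value to 0.60, just over it. The 24 h value with R1881 alone fell to 0.17 without R1881 replicate 2 (FDR 0.0408). DESeq2 gave that value an adjusted p of 0.0101 with all libraries.

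RELA codes for the main activating subunit of the canonical dimer. Its 28 values lay between 67.9 and 89.2 CPM with a median of 76.0. With R1881 alone the log2 fold change was -0.14 ± 0.05 at 24 h (FDR 0.00931), where one R1881 library at 77.0 CPM exceeded one vehicle library at 76.3, and -0.14 ± 0.04 at 72 h (FDR 0.00181), where the groups did not overlap. The 24 h value shrank to -0.09 without vehicle replicate 3 (FDR 0.164) or R1881 replicate 1 (FDR 0.131). A lincRNA gene, AP001362.2, overlaps RELA on the other strand, and without a stated strand setting their reads cannot be told apart. REL, which codes for c-Rel, lay between 11.2 and 15.7 CPM. Its log2 fold change with R1881 alone was -0.25 ± 0.09 at 24 h (FDR 0.0197) and -0.18 ± 0.08 at 72 h (FDR 0.0353), short of the limit in both. A pair of annotated genes, RNU4-51P and AC010733.2, overlap REL on its own strand, and the deposited values of REL carried a fraction in 11 of the 28 libraries.

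RELB, the partner of p52 in the non-canonical dimer, was close to the detection limit, with 6 to 70 counts per library. At 72 h it read 1.96, 2.31, 1.51 and 1.98 CPM with vehicle, 1.38, 1.36, 1.33 and 1.84 with SNX631, 1.45, 1.64, 0.703 and 1.13 with R1881, and 0.475, 1.22, 0.833 and 0.656 with both. Every library with both agents was below every SNX631 library, while R1881 and vehicle overlapped. The R1881 effect with SNX631 present was -0.89 ± 0.28 (FDR 0.00507), a call that DESeq2 did not make (-0.90, adjusted p 0.0138). It was also lost when SNX631 replicate 4 or replicate 1, 3 or 4 of R1881 with SNX631 was left out, with values down to -0.73 (FDR 0.0257). Without inhibitor the R1881 effect was -0.68 ± 0.25 at 72 h (FDR 0.0172) and -0.47 ± 0.31 at 24 h (FDR 0.180), the latter -0.17 without vehicle replicate 3. The 72 h effect was called without vehicle replicate 3 (-0.78, FDR 0.00977) or R1881 replicate 2 (-0.87, FDR 0.00748).

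NFKBIA, the gene for IkBα, was 2.11-fold higher with R1881 at 24 h and 2.63-fold at 72 h. At 24 h it read 51.2, 56.5 and 58.4 CPM with vehicle, 43.0, 45.9 and 45.8 with Senexin B, 115, 127 and 113 with R1881, and 118, 108 and 110.4 with both. At 72 h it read 44.2, 43.2, 43.3 and 46.4 CPM with vehicle, 37.7, 39.9, 37.3 and 36.3 with SNX631, 114, 118, 124 and 116 with R1881, and 103, 108, 108 and 107 with both. Every library with R1881 was far above every library without it, at either time. The log2 fold change was 1.08 ± 0.05 at 24 h (FDR 6.06e-19) and 1.40 ± 0.04 at 72 h (FDR 3.37e-28). With the inhibitor present it was 1.32 ± 0.05 for Senexin B (FDR 3.06e-20) and 1.46 ± 0.04 for SNX631 (FDR 1.32e-28).

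Both inhibitors moved NFKBIA slightly downwards in the absence of R1881, by -0.31 ± 0.06 for Senexin B (FDR 4.38e-05) and -0.23 ± 0.05 for SNX631 (FDR 1.05e-04), with no overlap with vehicle and under the fold limit. On top of R1881 the shift was -0.17 ± 0.03 for SNX631 (FDR 7.13e-05), again without overlap, and -0.07 ± 0.05 for Senexin B (FDR 0.270), where the groups overlapped. The interaction was 0.24 ± 0.07 at 24 h (FDR 0.0517) and 0.07 ± 0.06 at 72 h (FDR 0.527).

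Neither of the other IkB genes was called. NFKBIB, which codes for IkBβ, lay between 6.74 and 11.1 CPM in all libraries, and its log2 fold change with R1881 alone was 0.27 ± 0.12 at 24 h (FDR 0.0529) and 0.18 ± 0.12 at 72 h (FDR 0.195). The 24 h value was 0.16 without R1881 replicate 2 (FDR 0.315) and 0.39 without replicate 3 (FDR 0.00932). The gene SIRT2 overlaps it on the other strand, and their reads cannot be told apart either. NFKBIE, which codes for IkBε, lay between 2.90 and 6.58 CPM. Its R1881 libraries at 72 h were widely spread, at 4.54, 6.58, 2.90 and 6.09 CPM against 3.73 to 4.18 with vehicle, and the log2 fold change was 0.36 ± 0.16 (FDR 0.0533), or 0.19 without R1881 replicate 2 (FDR 0.345) and 0.55 without replicate 3 (FDR 0.00106). At 24 h the R1881 effect on NFKBIE was 0.55 ± 0.17 with Senexin B present (FDR 0.00740), under the fold limit, and 0.10 ± 0.16 without it (FDR 0.605). The former passed the limit, at 0.67, without replicate 1 of the combined group.

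TNFAIP3 showed the largest rise with R1881 among the 10 genes. At 24 h it read 1.99, 2.33 and 2.32 CPM with vehicle, 1.04, 2.44 and 2.54 with Senexin B, 7.95, 8.04 and 7.93 with R1881, and 12.3, 9.81 and 8.31 with both. At 72 h it read 2.05, 1.87, 2.59 and 2.67 CPM with vehicle, 2.33, 1.96, 1.73 and 2.00 with SNX631, 13.6, 12.8, 14.8 and 12.7 with R1881, and 14.03, 13.3, 15.2 and 12.7 with both. Libraries with and without R1881 did not overlap, and all values at 72 h with R1881 were above all at 24 h. The log2 fold change was 1.82 ± 0.19 at 24 h (FDR 2.26e-10) and 2.53 ± 0.14 at 72 h (FDR 1.34e-20), or 3.53-fold and 5.79-fold. It was 2.34 ± 0.22 with Senexin B present (FDR 2.92e-12) and 2.76 ± 0.14 with SNX631 present (FDR 7.81e-22). The antisense gene AL357060.1 overlaps TNFAIP3, and without a stated strand setting their reads cannot be told apart.

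BIRC3 fell with R1881 and with each inhibitor alone. At 24 h it read 3.32, 4.17 and 3.35 CPM with vehicle, 2.37, 1.01 and 1.38 with Senexin B, 1.57, 1.72 and 0.264 with R1881, and 0.689, 0.673 and 0.396 with both. At 72 h it read 2.47, 3.13, 3.60 and 3.96 CPM with vehicle, 1.46, 1.88, 2.12 and 1.34 with SNX631, 0.207, 0.247, 0.791 and 0.522 with R1881, and 0.792, 0.645, 0.625 and 0.437 with both. Vehicle libraries were the highest in each experiment and overlapped no other group. These are few reads: the R1881 libraries at 72 h held 2, 3, 9 and 6 counts, and the third R1881 library at 24 h held 3.

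The log2 fold change of BIRC3 with R1881 alone was -1.59 ± 0.33 at 24 h (FDR 3.15e-05) and -2.88 ± 0.35 at 72 h (FDR 2.43e-11). With the inhibitor present it was -1.47 ± 0.47 for Senexin B (FDR 0.00466) and -1.47 ± 0.30 for SNX631 (FDR 2.52e-05). The former call was lost without Senexin B replicate 1 (-1.06, FDR 0.0684) or without replicate 2 or 3 of the combined group (FDR 0.0101 and 0.0345). Senexin B alone gave -1.13 ± 0.28 (FDR 0.00114) and SNX631 alone -0.95 ± 0.21 (FDR 2.32e-04), and neither was called in a test against a fold change of 1.5 (FDR 0.492 and 0.394). The Senexin B call was lost without Senexin B replicate 2 (-0.89, FDR 0.0173) or replicate 3 (-1.02, FDR 0.0117). On top of R1881 the values were -1.01 ± 0.50 for Senexin B (FDR 0.112), which became -1.499 (FDR 0.00719) without the third R1881 library, and 0.45 ± 0.42 for SNX631 (FDR 0.395).

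Because the numerator and denominator come from the same library, ratios of 2 members per kilobase do not depend on the scaling between libraries. The NFKB1 to RELA ratio was 0.971 ± 0.061 (SD, n = 3) with vehicle at 24 h, 1.24 ± 0.04 with Senexin B, 0.656 ± 0.026 with R1881 and 0.779 ± 0.044 with both. At 72 h it was 1.10 ± 0.04 (SD, n = 4) with vehicle, 1.46 ± 0.03 with SNX631, 0.615 ± 0.032 with R1881 and 0.621 ± 0.029 with both. Per kilobase, RNA for the p50 precursor thus exceeded RNA for RELA in all libraries with an inhibitor alone and was below it in all libraries with R1881. It also exceeded RNA for RELA in all vehicle libraries at 72 h (1.05 to 1.14), while those at 24 h lay on both sides of 1 (0.934 to 1.04). Where the ratio crosses 1 depends on the exon lengths used. The NFKBIA to RELA ratio was 1.59 ± 0.11 with vehicle and 3.72 ± 0.22 with R1881 at 24 h, and 1.32 ± 0.02 and 3.83 ± 0.06 at 72 h. The NFKB2 to NFKB1 ratio was 0.449 ± 0.004 with vehicle and 0.865 ± 0.084 with R1881 at 24 h, and 0.402 ± 0.023 and 0.974 ± 0.055 at 72 h. These ratios are of RNA and say nothing of processing or protein.

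**Figure D3:**
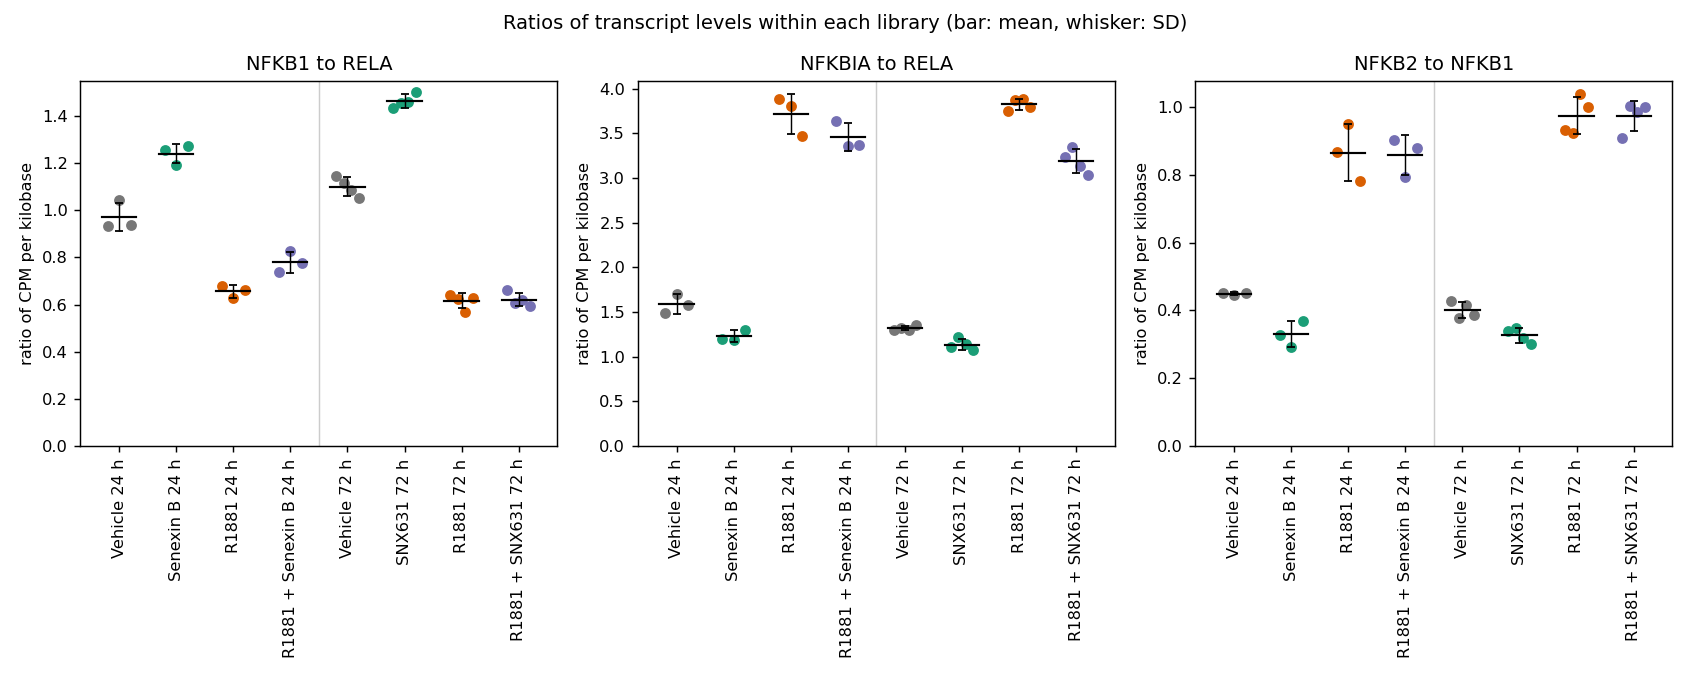
Ratios of CPM per kilobase (y axis, linear from 0) of NFKB1 to RELA, NFKBIA to RELA and NFKB2 to NFKB1 within each library, by group, with 1 point per library, a bar at the mean and a whisker of 1 SD. The R1881 groups stand apart from the groups without R1881 in all 3 panels, at 0.656 against 0.971 for NFKB1 to RELA at 24 h, for example.

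Genes whose pattern was most like that of a called member were found by Pearson correlation of log2 CPM over the 28 libraries, each centred on its experiment, among 13463 genes. The points share libraries and treatment groups, so these values only describe the pattern. For NFKB1 they were MANBA (r = 0.992), PPM1H (0.986) and BARD1 (0.986). For NFKBIA they were SURF4 (0.997), GLUD1 (0.996) and TSPYL1 (0.995), and for TNFAIP3 CASTOR1 (0.991), PPP2CB (0.984) and LRRFIP2 (0.984). Both genes with few counts had looser matches, ATXN7L1 (0.885), LGALS3BP (0.882) and ID2-AS1 (0.881) for BIRC3, and ZBTB26 (0.826), RAVER2 (0.815) and ZSCAN20 (0.813) for RELB.

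The wider pathway was read from lists of 12 ligands, 17 receptors, 32 adaptors and kinases, 26 other inhibitors and co-factors, and 52 target genes. The cells made almost no ligand RNA: none of the 12 passed the filter, 3 were at 0 in every library, and the highest value was 0.753 CPM for IL1B. Of the 84 listed genes tested at 24 h, 7 were higher and 8 lower with R1881 alone, or 17.9%, against 19.0% of all genes. At 72 h 9 were higher and 17 lower of 85, or 30.6%, against 19.8%. Of the receptors 10 were tested at 24 h, with 2 higher and 2 lower, and 9 at 72 h, with 2 higher and 4 lower. The median log2 fold change of the receptors was 0.30 and 0.28, beside -0.02 and -0.01 over all genes. Of 31 adaptors and kinases, 2 were higher and 1 lower at either time, with medians of 0.08 and 0.04. Of the other inhibitors, 1 was higher and 2 lower of 23 at 24 h and 2 higher and 4 lower of 24 at 72 h, with medians of -0.11 and -0.02. Of the target genes tested, 2 were higher and 3 lower of 20 at 24 h and 3 higher and 8 lower of 21 at 72 h, with medians of -0.10 and -0.24. The rest of the 52 did not pass the filter, among them CXCL8, CXCL1, CXCL2, IL6 and CSF2, at 0 in every library. ICAM1, CCL2 and PTGS2 held at most 2 counts in any library. These counts of targets therefore cover only those with enough reads.

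Of the 6 listed genes called higher with R1881 in both experiments, the largest mean rises over the 2 were those of TNFAIP8, MALT1, OTULIN and TIFA. TNFAIP8, an NF-kB target that opposes apoptosis, rose from 3.67 ± 0.50 to 28.6 ± 0.8 CPM (SD, n = 3) at 24 h (log2 fold change 2.90 ± 0.11 SE, FDR 8.60e-22) and by 3.23 ± 0.11 at 72 h (FDR 9.81e-29). MALT1, the paracaspase that cleaves TNFAIP3 protein downstream of antigen receptors, rose from 25.1 ± 0.5 to 135 ± 2 CPM at 24 h (2.43 ± 0.05, FDR 1.67e-29) and by 2.51 ± 0.05 at 72 h (FDR 2.52e-33). OTULIN, which removes linear ubiquitin chains, rose by 1.10 ± 0.06 (FDR 1.92e-17) and 1.32 ± 0.05 (FDR 5.92e-25). TIFA, an adaptor that binds TRAF6, rose by 1.28 ± 0.14 (FDR 1.45e-09) and 0.80 ± 0.11 (FDR 8.22e-08). Thus the list genes that rose included both an activator (MALT1) and a negative regulator (OTULIN) of the pathway.

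Of the 8 listed genes called lower in both experiments, the largest mean falls were those of SDC4, TNFRSF12A, CD83 and MAP3K8. SDC4, a cell surface heparan sulfate proteoglycan, fell from 38.3 ± 1.6 to 14.5 ± 1.2 CPM at 24 h (-1.40 ± 0.08, FDR 3.11e-16) and by a log2 fold change of -1.72 ± 0.06 at 72 h (FDR 7.84e-27). TNFRSF12A, the receptor for the cytokine TWEAK, changed by -1.51 ± 0.13 (FDR 9.49e-13) and -1.52 ± 0.15 (FDR 3.04e-12). CD83, a surface marker of activated immune cells that is also a target gene, changed by -1.04 ± 0.16 (FDR 9.42e-07) and -1.39 ± 0.13 (FDR 4.54e-12). MAP3K8 (TPL2), a kinase held by the p105 protein that NFKB1 encodes, changed by -0.68 ± 0.22 (FDR 0.00635) and -1.42 ± 0.20 (FDR 3.27e-08). The 24 h call of MAP3K8 was not made by DESeq2 (adjusted p 0.0261) and was lost without replicate 1 or 3 of vehicle or of R1881, with values down to -0.53.

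**Figure D4:**
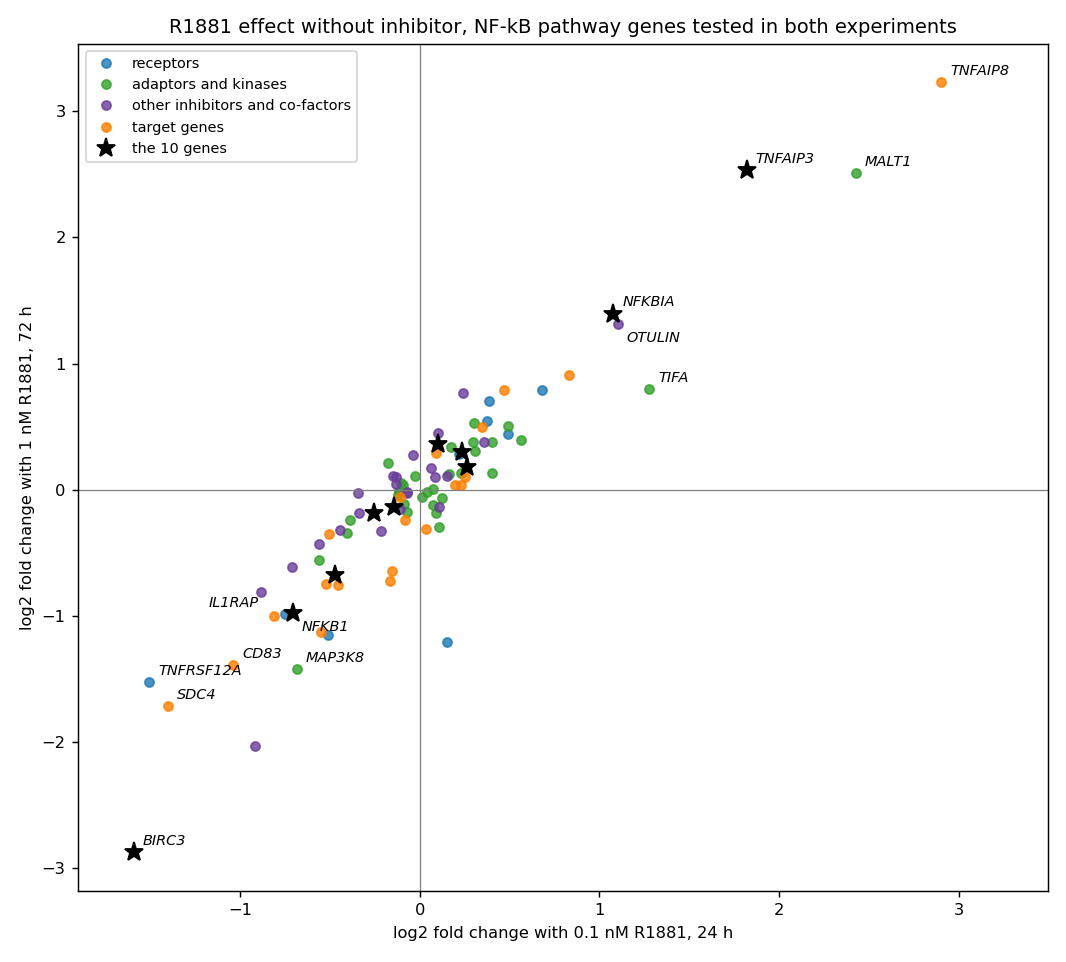
Log2 fold change with R1881 alone at 24 h (0.1 nM, x axis) and at 72 h (1 nM, y axis) for the NF-kB pathway genes tested in both experiments, coloured by list, with the 10 genes as stars. NFKBIA and TNFAIP3 lie at the upper right with MALT1 and TNFAIP8, and NFKB1 and BIRC3 at the lower left with SDC4.

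The kinase inhibitors alone changed 2 of 84 listed genes at 24 h and 2 of 85 at 72 h, or 2.38% and 2.35%, beside 3.76% and 4.76% of all genes. IL1RAP, the shared accessory chain of the interleukin-1 receptor family, was called lower with both compounds, from 18.9 ± 0.1 to 11.5 ± 1.2 CPM with Senexin B (-0.70 ± 0.09, FDR 1.34e-07) and from 16.5 ± 1.3 to 10.0 ± 1.0 CPM with SNX631 (-0.73 ± 0.09, FDR 1.24e-08). It was also lower with R1881, by -0.75 ± 0.09 at 24 h (FDR 1.40e-08) and -0.99 ± 0.10 at 72 h (FDR 8.58e-12), so that, like BIRC3, it fell with either kind of agent. The others, named because they completed these counts, were ZC3H12A, an RNase that degrades inflammatory messages, higher with Senexin B (0.74 ± 0.07, FDR 1.61e-09), and NFKBIZ, a nuclear IkB protein, higher with SNX631 (0.76 ± 0.12, FDR 4.09e-06). Each moved the same way with the other compound without being called. ZC3H12A changed by 0.34 ± 0.07 with SNX631 (FDR 3.80e-04) and NFKBIZ by 0.52 ± 0.16 with Senexin B (FDR 0.0108). On top of R1881, IL1RAP was the 1 listed gene called with Senexin B (-1.08 ± 0.13, FDR 5.57e-08), or 1.19% beside 3.12% of all genes, and with SNX631 its shift was -0.55 ± 0.11 (FDR 1.38e-04), under the fold limit.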

How the data were processed

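Total RNA from LNCaP cells was sequenced with directional libraries, and the authors deposited estimated counts per gene, some of them fractional (16.9% of values above 0). The submitters' processing notes name FastQC, cutadapt 2.8, STAR 2.7.2b, featureCounts (Subread 2.0.3) and the builds GRCh38.p13 and GRCm39, while the strand setting and annotation release are not given in the sources used here. Counts were rounded to whole numbers. 2 added reporter entries with 0 counts were left out. The 24 h and 72 h libraries were fitted separately, 4 groups each, by edgeR 4.0.16 (R 4.3.3, filterByExpr at a minimum count of 10, TMM, quasi-likelihood test, Benjamini-Hochberg over all genes). DESeq2 1.42.0 was an alternative. CPM values of the members and of pathway genes with fold changes given were TMM-scaled over all 28 libraries. Those of KLK3, the cell markers and the ligands were scaled to library totals only. The members and lists were chosen with earlier results of these data known. Of the lists, up to 4 genes per direction called alike in both experiments were named by mean log2 fold change. Likeness was computed for all members and is given for those called at least once. Group labels came from the sample titles and treatments. Lengths and overlaps came from GENCODE 29 by gene identifier.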

Additional observations from a re-analysis of the deposited data

Results flagged for a closer look

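The R1881 effect on NFKB1 differed with and without SNX631 at 72 h, with an interaction of -0.28 on the log2 scale (edgeR FDR 2.51e-04): NFKB1 stood at 97.4 ± 3.4 CPM with vehicle and 129 ± 3 with SNX631, but at 49.96 ± 1.51 with R1881 and 54.6 ± 2.0 with both (SD, n = 4). For BIRC3 the same interaction was 1.40 (FDR 0.0348), on group means of 3.29 ± 0.64 CPM with vehicle, 1.70 ± 0.36 with SNX631, 0.442 ± 0.272 with R1881 and 0.625 ± 0.146 with both, the last 2 resting on 2 to 10 counts per library.

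A single library stood apart from the other 3 of its group in 3 of the 40 sets of 4 values, where chance would mark about 1 in 20. They were NFKB1 in one vehicle library at 72 h, at 102 CPM against 95.3 to 96.2, RELA in one R1881 library at 72 h, at 73.4 CPM against 70.0 to 70.3, and RELB in one SNX631 library, at 1.84 CPM against 1.33 to 1.38.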

How the results depend on the processing

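All 19 called values of the 10 genes kept their direction under every alternative run, and 15 of them kept their call. In the test against a fold change of 1.5, a call needed an FDR under 0.05. NFKB1 with R1881 alone at 24 h had 0.0147 in that test, so at an FDR under 0.01 its call would be lost. The run with FDR under 0.05 and no fold limit cannot lose a call. Scaling by DESeq2's size factors, library totals, no filter, a filter of 1 CPM, 1 fit of all 28 libraries and fits of only the groups compared lost none of these calls. With FDR under 0.05 and no fold limit, members called numbered 7 for R1881 and 7 for R1881 with Senexin B, 3 for Senexin B, 2 for Senexin B on top of R1881, 8 for R1881 at 72 h, 4 for SNX631, 3 for SNX631 on top of R1881 and 2 for the 72 h interaction, beside 58.4%, 57.3%, 35.8%, 33%, 62.1%, 36.5%, 42.8% and 12.7% of all genes. Listed pathway genes then numbered 48, 49, 42, 31, 62 and 42 in the same order without the last 2, and 61 for R1881 with SNX631 (65.7% of all genes), of 84 tested at 24 h and 85 at 72 h. Against a fold change of 1.5, members called were 0 for either inhibitor alone and listed genes 0, with 12 for R1881 with Senexin B and 16 for R1881 at 72 h, with or without SNX631. Library totals and no filter gave 4 listed genes for Senexin B. Leaving out libraries gave 0 to 1 members for Senexin B with or without R1881. For listed genes it gave 2 to 5 for Senexin B (4 without replicate 2, 5 without replicate 3), 1 to 2 on top of R1881 (2 without R1881 replicate 2 or 3), and 2 to 4 for SNX631 (4 without replicate 2). Of 37 member values with an unadjusted p of 0.05 or more and a log2 change under 0.25, 16 changed sign under some alternative. The cause of these shifts was not tested, beyond the altered limits themselves.

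Replicate numbers were not taken to pair the libraries, since not every same-numbered pair correlated above 0.1. Correlations of same-numbered deviations ran from -0.096 to 0.344 at 24 h and -0.238 to 0.156 at 72 h. Their medians were 0.050 and 0.011, beside -0.050 and 0.014 for other pairs. Of the libraries, 7 of 12 and 3 of 16 correlated best with their own number. No chance level was computed for these counts, so for 24 h they are at most a hint from the data and not from the design. With a replicate block, members called were 4, 4, 1, 0 and 0 at 24 h and 4, 5, 1, 0 and 0 at 72 h, as without it, and listed genes were 15, 19, 3 and 1 at 24 h and 26, 27 and 2 at 72 h. Depth limits BIRC3 (2 to 114 counts per library) and RELB (6 to 70) most.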

Other observations

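The nearest tested genes on either side of the 4 genes changed by R1881 were read as well, a set looked at after MANBA had appeared as the closest match to NFKB1. MANBA, which codes for the lysosomal enzyme beta-mannosidase, lies 13467 bases beyond NFKB1 in GENCODE 29. Its log2 fold changes with R1881 alone were -0.80 at 24 h (edgeR FDR 6.16e-15) and -1.05 at 72 h (FDR 4.21e-21), beside -0.71 and -0.98 for NFKB1, and with Senexin B and SNX631 alone 0.47 and 0.43, beside 0.42 and 0.40. SLC39A8, a zinc transporter gene 70070 bases on the other side of NFKB1, changed by -0.03 with R1881 in both experiments and by 0.57 with Senexin B and 0.67 with SNX631 (FDR 6.87e-16), the latter a call.

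BIRC2, the paralog that lies 7807 bases from BIRC3 and codes for cIAP1, changed by -0.12 and -0.05 with R1881 and by -0.06 and 0.03 with the inhibitors, none of them called, beside -1.59 and -2.88 for BIRC3 with R1881. YAP1, a co-activator gene 84026 bases on the other side of BIRC3, changed by -0.45 (FDR 1.85e-10) and -0.35 (FDR 1.28e-10) with R1881 and by -0.21 and -0.27 with the inhibitors, all under the fold limit. PSMA6, which codes for a proteasome subunit and lies 84017 bases from NFKBIA, was higher with R1881, by 0.66 at 24 h (FDR 2.27e-15) and 0.70 at 72 h (FDR 4.44e-20), while RALGAPA1 on the other side changed by -0.10 in both. Neighbours of TNFAIP3 were farther off. PERP, at 205192 bases, was higher with R1881, by 0.46 at 24 h (FDR 1.37e-12) and by 0.63 at 72 h (FDR 5.86e-20), the latter a call. IFNGR1, at 647738 bases, changed by 0.32 (FDR 5.53e-05) and 0.24 (FDR 3.01e-04), both under the fold limit.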
